A study of Mus musculus with 37 samples.

Results

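Bdnf, Ntf3, Ntrk2 and Ntrk3 are the neurotrophin genes and Trk receptor genes followed here in laser-captured tissue of the mouse forebrain. Members were the measured features whose RefSeq transcript accession belongs to one of these 4 genes. Features with identical values were counted once, and transcripts of one gene with different values were kept apart. The rule found 11 accessions with 6 distinct sets of values, out of 18835 distinct features on the array. Bdnf was 1 feature shared by 4 accessions (gene at chr2:109674700-109727043) and Ntf3 was 1 feature shared by 3 (chr6:126101412-126166772). Ntrk2 had 2 features, NM_001025074 and NM_008745 (chr13:58806472-59133970). Ntrk3 also had 2, NM_008746 and NM_182809 (chr7:78179986-78581034). Coordinates are gene spans of the RefSeq annotation on GRCm38.p6, which gave the names, and the probes behind a feature were not located.

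All mice were adult C57BL/6J males, taken undisturbed in the morning. The glucocorticoid receptor was overexpressed in the forebrain (GRov) for the lifetime or during early life, and control mice had no GRov. The dentate gyrus (DG) of the hippocampus was captured in 6 lifetime GRov, 6 early-life GRov and 6 control mice. The nucleus accumbens (NAcc), a part of the ventral striatum, was captured in 7 lifetime GRov, 6 early-life GRov and 6 control mice. The 37 arrays came from 19 animals, and 18 animals gave both regions. The labels give neither the promoter of the transgene, nor how its expression was limited to early life, nor a litter, and nothing in them says that animals were pooled. RNA went through 2 rounds of amplification before hybridization. In tissue pieces such as these, fewer cells of a type and less RNA per cell cannot be told apart.

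Neurotrophins are secreted growth factors that support the survival, outgrowth and synaptic plasticity of neurons. BDNF acts mainly through the receptor tyrosine kinase TrkB, encoded by Ntrk2, and neurotrophin-3, encoded by Ntf3, acts mainly through TrkC, encoded by Ntrk3. Ligand binding to full-length Trk receptors starts the Ras-MAP kinase, PI3 kinase and phospholipase C gamma cascades. Both receptor genes also make truncated forms without the kinase, and truncated TrkB is abundant in astrocytes. The annotation used here does not pair the 4 receptor accessions with these forms. Granule cells of the dentate gyrus are known to express Bdnf and Ntf3, while the BDNF of the striatum is mostly made in the cortex and carried there along axons. Glucocorticoids and neuronal activity are both known regulators of Bdnf transcription.

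The promoter sequences are shown because the overexpressed factor binds DNA and because Bdnf and Ntf3, the ligand genes, were the members that passed the test in the dentate gyrus. RefSeq promoter windows on GRCm38.p6 each covered the 250 bases before a transcript start. Windows were matched for Bdnf (7 starts), Ntf3 (2 starts) and Ntrk2 (1 start), but none for Ntrk3. They were searched on both strands for 4 motifs: the glucocorticoid receptor palindrome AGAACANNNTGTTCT, its hexamer AGAACA, the cAMP response element TGACGTCA, and CACGTCA, which shares the letters ACGTCA with it. The first Bdnf start, at chr2:109674450-109674699 on the plus strand, holds AGAACA 237 bases before the start. The third, at chr2:109692186-109692435 on the plus strand, holds CACGTCA 37 bases before the start. The window of the first Ntf3 start, at chr6:126166745-126166994 on the minus strand, held none of the 4 motifs. Capitals mark the motif.
Bdnf start 1: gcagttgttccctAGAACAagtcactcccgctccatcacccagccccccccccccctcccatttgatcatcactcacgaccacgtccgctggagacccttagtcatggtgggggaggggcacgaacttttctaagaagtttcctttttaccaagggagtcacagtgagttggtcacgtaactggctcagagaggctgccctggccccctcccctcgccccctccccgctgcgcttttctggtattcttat
Bdnf start 3: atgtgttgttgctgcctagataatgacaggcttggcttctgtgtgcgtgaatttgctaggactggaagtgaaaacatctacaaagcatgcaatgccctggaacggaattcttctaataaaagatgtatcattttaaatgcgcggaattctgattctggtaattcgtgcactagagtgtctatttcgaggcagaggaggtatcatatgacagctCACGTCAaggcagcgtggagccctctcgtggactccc
Ntf3 start 1: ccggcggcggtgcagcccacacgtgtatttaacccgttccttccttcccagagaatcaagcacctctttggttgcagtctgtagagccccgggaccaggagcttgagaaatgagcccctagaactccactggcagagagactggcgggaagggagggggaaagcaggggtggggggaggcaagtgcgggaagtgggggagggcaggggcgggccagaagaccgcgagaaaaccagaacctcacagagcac
AGAACA was found in 3 of the 7 Bdnf windows and CACGTCA in 1, while neither the palindrome nor TGACGTCA was found in them. The second Ntf3 window and the Ntrk2 window held none of the 4 motifs. Of 32851 windows of the same length from all genes, 16.1% held AGAACA, 1.65% held CACGTCA, 1.55% held TGACGTCA and 0.00913% held the palindrome. A match describes letters in a window and says nothing about binding.

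All values are log2 expression after the authors' robust multi-array average (RMA) normalization. In each region the 3 groups were fitted together with limma over 11301 features, with Benjamini-Hochberg adjustment of p over all of them. Rose, fell and changed refer to an adjusted p under 0.05. The overexpressed gene itself, Nr3c1, was measured at 8.14 to 8.65 (median 8.36) in lifetime GRov, 8.01 to 8.49 (median 8.25) in early-life GRov and 7.94 to 8.25 (median 8.14) in control DG. Its differences from control did not pass the test (lifetime +0.25, limma adjusted p = 0.0757, and early life +0.15, adjusted p = 0.274), and once array width (the interquartile range) entered as a covariate they were +0.05 (adjusted p = 0.894) and -0.02 (adjusted p = 0.966). In NAcc Nr3c1 had medians of 7.80 in lifetime GRov, 7.54 in early-life GRov and 7.40 in control mice, with overlapping ranges, and +0.35 for lifetime GRov did not pass the test either (adjusted p = 1.0). That NAcc difference had an unadjusted limma p of 0.0203, and it passed in 2 of 9 other settings. These were array weights (+0.42, adjusted p = 0.0214) and leaving out animals 5 and 8, described below (+0.42, adjusted p = 0.0295). With array width as a covariate it was +0.27 (adjusted p = 0.288). The labels do not say whether the array's probes match the transgene. Tissue identity followed the labels. All 10 granule cell markers tested were higher in DG, with a median DG minus NAcc difference of +4.10. All 8 medium spiny neuron markers were higher in NAcc, with a median of -1.79. Over all features the median was +0.71, with 82.9% called higher and 6.67% lower in DG.

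Some arrays stood apart. The NAcc array of early-life GRov animal 5 had a mean correlation of 0.773 with the other NAcc arrays, against up to 0.980 for other arrays of its group. It had the narrowest spread of values of all NAcc arrays, with an interquartile range of 1.72. The NAcc array of lifetime GRov animal 8 had the next highest array median in NAcc, 6.27, after 6.50 in animal 5. In DG the interquartile range differed between the groups: it was 2.87 ± 0.10 in lifetime GRov, 2.85 ± 0.09 in early-life GRov and 2.71 ± 0.04 in control mice (SD, n = 6 each). Values with this range as a covariate are given beside the differences from control in DG.

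**Figure D1:**
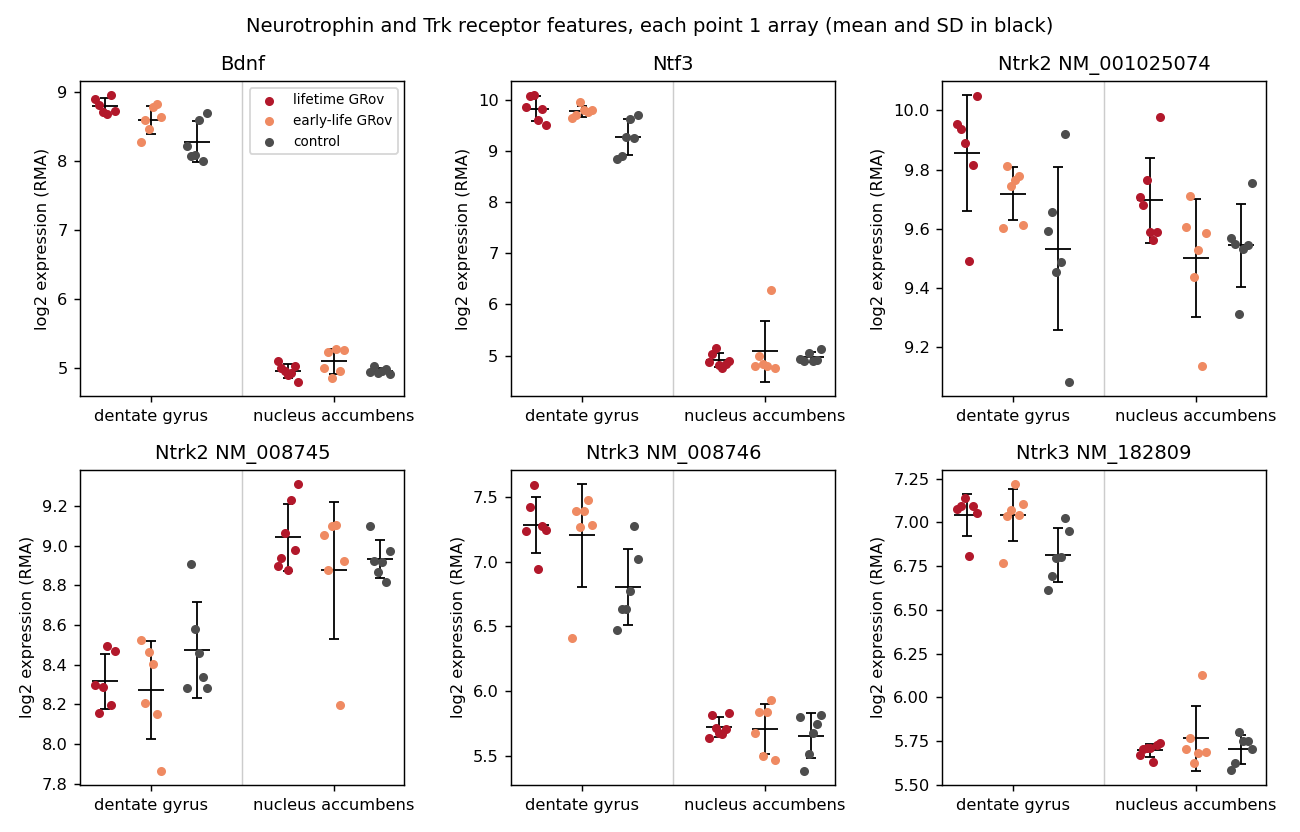
Log2 expression of the 6 features on every array, by region and group, with the mean and SD in black and a separate y axis per panel. Bdnf, Ntf3 and the Ntrk3 features lie higher in the dentate gyrus than in the nucleus accumbens on all arrays, while within each region the 3 groups overlap.

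In the dentate gyrus, both ligand genes rose with lifetime GRov, Bdnf 1.43-fold and Ntf3 1.48-fold, and Ntf3 also rose 1.43-fold with early-life GRov. No feature of the receptor genes passed the test in either comparison, and no member fell. Lifetime GRov against control thus had 2 of 6 members called, beside 15.3% of all features tested (8.88% higher and 6.45% lower). Early-life GRov against control had 1 of 6, beside 11.4% of all features (6.17% higher and 5.26% lower), a share close to that background. These comparisons share their control mice. The count of receptor features called varied with scaling, since median centring of each array brought the lifetime count to 5 of 6 and further quantile normalization brought it to 4. The share of all features called on those scales is not given here, so these counts have no background beside them. The median difference over the 6 members was +0.40 for lifetime GRov, beside +0.002 over all features, and +0.27 for early-life GRov, beside -0.01 over all features.

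Bdnf, the ligand of TrkB, was measured in DG at 8.67 to 8.95 (median 8.76) in lifetime GRov mice, 8.28 to 8.82 (median 8.62) in early-life GRov mice and 8.003 to 8.70 (median 8.15) in control mice. The lifetime arrays were tightly grouped and only the lowest of them lay within the control range, which 2 high control animals, 17 (8.59) and 19 (8.70), stretched upwards. Without those 2 animals the other control values were 8.003 to 8.21. For lifetime GRov against control the difference was +0.51 ± 0.12 (SE, 95% interval 0.27 to 0.76), with 6 of 6 lifetime values above the control mean and a limma adjusted p of 0.00889. It stayed past the threshold when any single DG array was left out (adjusted p 0.00242 to 0.0256). Once the array interquartile range was added as a covariate it was +0.40 ± 0.16 (SE) and did not pass (adjusted p = 0.324). For early-life GRov against control Bdnf differed by +0.32 ± 0.12 (SE), with 5 of 6 values above the control mean, which did not pass (adjusted p = 0.0802, and 0.632 at +0.22 with the range as a covariate). That early-life difference passed without early-life animal 1, the lowest of its group (+0.38, adjusted p = 0.0304), or without control animal 19 (+0.40, adjusted p = 0.0298). Without early-life animal 1, 20.1% of all features were called for early life, beside 11.4% with all arrays. The order of the DG means was lifetime (8.79 ± 0.11), early life (8.60 ± 0.20) and control (8.28 ± 0.29, SD, n = 6 each), and the neighbours in that order did not differ past the threshold.

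Ntf3, which encodes the ligand of TrkC, was measured in DG at 9.52 to 10.09 (median 9.85) in lifetime GRov mice, 9.65 to 9.96 (median 9.78) in early-life GRov mice and 8.85 to 9.71 (median 9.26) in control mice. The same control animals, 17 (9.62) and 19 (9.71), were the highest and the only ones to reach into the range of the GRov groups. Lifetime GRov exceeded control by +0.56 ± 0.14 (SE, 95% interval 0.28 to 0.85), in 6 of 6 mice above the control mean, with a limma adjusted p of 0.0118. This also held when any single DG array was left out (adjusted p 0.00458 to 0.0359). Early-life GRov exceeded control by +0.51 ± 0.14 (SE, 95% interval 0.23 to 0.80), again in 6 of 6 mice, with an adjusted p of 0.0270. The early-life call was lost without any one of early-life animals 3, 4 and 5 or control animals 14 and 15 (differences +0.43 to +0.51, adjusted p 0.0522 to 0.0663). Calls over all features also dropped in those fits, to 213 to 838 for early life, against 1291 with all arrays. The early-life Ntf3 call was also lost with the animal as a random replicate block over both regions (adjusted p = 0.0751), where 511 features were called. With the array interquartile range as a covariate, Ntf3 differed by +0.33 ± 0.17 (SE, adjusted p = 0.476) for lifetime GRov and +0.31 ± 0.16 (SE, adjusted p = 0.539) for early-life GRov. The early-life and lifetime means were close, 9.83 ± 0.24 in lifetime and 9.78 ± 0.10 in early-life GRov mice, against 9.27 ± 0.35 in control mice (SD, n = 6 each).

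The Ntrk2 feature NM_001025074, for the BDNF receptor, was measured in DG at 9.49 to 10.05 (median 9.91) in lifetime GRov mice, 9.60 to 9.81 (median 9.75) in early-life GRov mice and 9.08 to 9.92 (median 9.54) in control mice. Control animal 18 (9.92) lay above the lifetime median, and lifetime animal 10 (9.49) lay below the control median. The difference from control was +0.32 ± 0.11 (SE, adjusted p = 0.0557) for lifetime GRov and +0.19 ± 0.11 (SE, adjusted p = 0.258) for early-life GRov, and neither passed. The lifetime difference passed without lifetime animal 10 (+0.40, adjusted p = 0.0127) or without control animal 18 (+0.40, adjusted p = 0.0175). Without lifetime animal 10, 23.1% of all features were called for lifetime GRov, beside 15.3% with all arrays. Adding the array range as a covariate gave +0.34 (adjusted p = 0.394) for lifetime and +0.20 (adjusted p = 0.651) for early-life GRov.

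The other Ntrk2 feature, NM_008745, had the opposite sign. It was measured in DG at 8.16 to 8.49 (median 8.29) in lifetime GRov mice, 7.87 to 8.53 (median 8.31) in early-life GRov mice and 8.28 to 8.91 (median 8.40) in control mice. The groups overlapped. The differences from control, -0.16 ± 0.12 (SE, adjusted p = 0.359) for lifetime GRov and -0.20 ± 0.12 (SE, adjusted p = 0.242) for early-life GRov, did not pass the test. Adding the array range as a covariate gave -0.14 (adjusted p = 0.787) for lifetime and -0.19 (adjusted p = 0.696) for early-life GRov. Within an array, NM_001025074 minus NM_008745 was 1.54 ± 0.28 in lifetime GRov, 1.45 ± 0.25 in early-life GRov and 1.06 ± 0.33 in control DG (SD, n = 6 each). The same difference in NAcc was 0.65 ± 0.15 in lifetime GRov (n = 7), 0.63 ± 0.23 in early-life GRov and 0.61 ± 0.14 in control mice (SD, n = 6 each). The DG groups thus differed in their means but overlapped, from 0.997 to 1.78 in lifetime GRov, 1.08 to 1.75 in early-life GRov and 0.75 to 1.58 in control mice. This difference was chosen after its values were seen and was not tested.

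Ntrk3 encodes the neurotrophin-3 receptor. Its feature NM_008746 was measured in DG at 6.94 to 7.59 (median 7.26) in lifetime GRov mice, 6.41 to 7.47 (median 7.33) in early-life GRov mice and 6.48 to 7.27 (median 6.71) in control mice. Early-life animal 1 (6.41) was the lowest of all DG arrays, while the other 5 early-life values were 7.27 to 7.47. The difference from control was +0.48 ± 0.16 (SE, adjusted p = 0.0525) for lifetime GRov and +0.40 ± 0.16 (SE, adjusted p = 0.107) for early-life GRov. Without early-life animal 1 both passed, at +0.48 (adjusted p = 0.0127) for lifetime GRov and +0.56 (adjusted p = 0.00972) for early-life GRov. The lifetime difference also passed without lifetime animal 10 (+0.55, adjusted p = 0.0250), control animal 18 (+0.58, adjusted p = 0.0232) or control animal 19 (+0.53, adjusted p = 0.0494). Over all features, 20.1% were called for early life without early-life animal 1, and 23.1% for lifetime GRov without lifetime animal 10. Adding the array range as a covariate gave +0.14 (adjusted p = 0.834) for lifetime and +0.10 (adjusted p = 0.890) for early-life GRov.

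The second Ntrk3 feature, NM_182809, was measured in DG at 6.81 to 7.14 (median 7.08) in lifetime GRov mice, 6.77 to 7.22 (median 7.06) in early-life GRov mice and 6.61 to 7.02 (median 6.80) in control mice. Lifetime animal 10 (6.81) stood below the other 5 lifetime values, 7.06 to 7.14. Differences from control were +0.23 ± 0.08 (SE, adjusted p = 0.0680) for lifetime GRov and +0.23 ± 0.08 (SE, adjusted p = 0.0803) for early-life GRov. They passed without early-life animal 1 (lifetime +0.23, adjusted p = 0.0463, and early life +0.28, adjusted p = 0.0236). The lifetime difference also passed without lifetime animal 10 (+0.28, adjusted p = 0.0230) or control animal 18 (+0.27, adjusted p = 0.0373). As above, more of all features were called for early life without early-life animal 1 (20.1%) and for lifetime GRov without lifetime animal 10 (23.1%). Adding the array range as a covariate gave +0.08 (adjusted p = 0.816) for lifetime and +0.10 (adjusted p = 0.769) for early-life GRov. The files do not say whether the 2 Ntrk3 features share probes. They varied together over the 18 DG arrays (Pearson r = 0.93, and 0.89 after the group means were taken off), as arrays of one normalization.

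**Figure D2:**
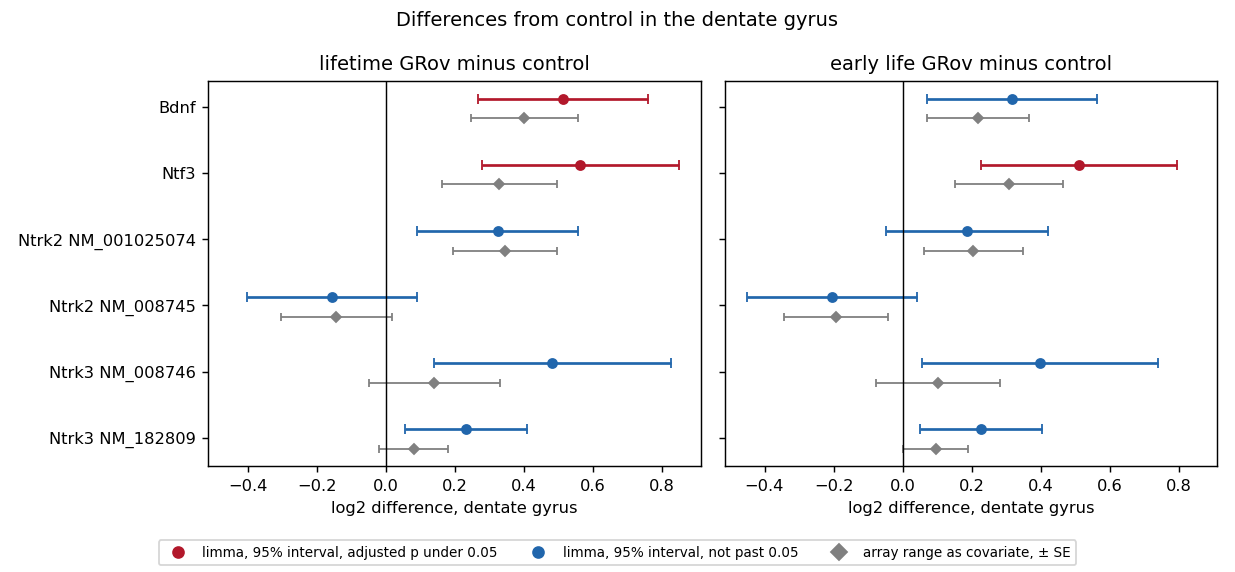
Log2 difference from control in the dentate gyrus for the 6 features, lifetime GRov on the left and early-life GRov on the right, with 95% intervals (circles) and, in grey, the value with the array interquartile range as a covariate ± SE. The 3 red intervals, Bdnf and Ntf3 for lifetime and Ntf3 for early life, are those with an adjusted p under 0.05, and the grey value of both Ntrk3 features lies closer to 0 than the circle.

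No member differed between lifetime and early-life GRov in DG past the threshold (limma, 0 of 6 called and 0 with an unadjusted p under 0.05, beside 1.37% of all features called and 9.69% with an unadjusted p under 0.05). None was called with the array range as a covariate either. Bdnf had +0.20 (95% interval -0.05 to 0.44, adjusted p = 0.679) and Ntf3 +0.05 (-0.23 to 0.34, adjusted p = 0.970). Ntrk2 NM_001025074 had +0.14 (-0.10 to 0.37). The remaining receptor features had +0.05 for Ntrk2 NM_008745, +0.08 for Ntrk3 NM_008746 and +0.004 for Ntrk3 NM_182809. The interval of the last was -0.17 to 0.18, the narrowest of the 6.

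The width of the DG arrays, as their interquartile range, was 2.79 to 3.04 in lifetime GRov, 2.72 to 2.95 in early-life GRov and 2.64 to 2.75 in control mice. Lifetime arrays did not overlap control arrays in width, and early-life arrays overlapped both. The 2 narrowest control arrays, those of animals 14 (2.64) and 15 (2.68), had the lowest Ntf3 of all DG arrays, 8.85 and 8.91. The next narrowest, that of control animal 17 (2.70), had a high Ntf3 for its group, 9.62. Bdnf was lowest in control animal 18 (8.003), whose array was wider (2.72). With the width as a covariate, 0 of 6 members were called in either comparison with control, and the features called fell to 74 for lifetime and 1 for early-life GRov, against 1733 and 1291 without it. The part of array width in the member differences was not tested further, and because width and group nearly coincide, they cannot be told apart.

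**Figure D3:**
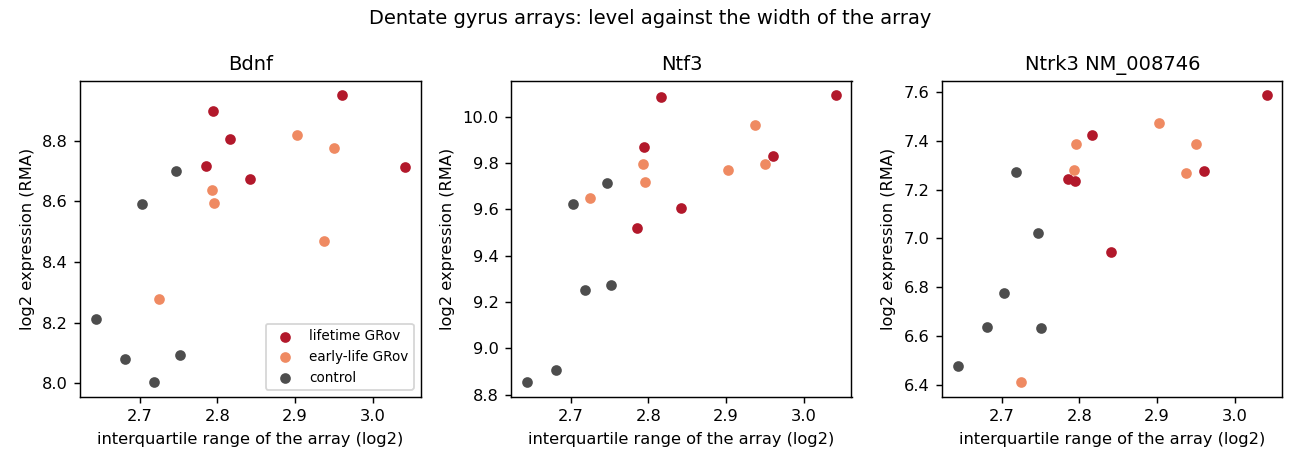
Level of Bdnf, Ntf3 and Ntrk3 NM_008746 (log2) on each of the 18 dentate gyrus arrays against the interquartile range of that array (log2). The control arrays lie at the narrow end, 2.64 to 2.75, and the lifetime arrays at 2.79 to 3.04. The 2 narrowest control arrays are the lowest in Ntf3, while the next narrowest, at 2.70, has an Ntf3 of 9.62.

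Among the members, Bdnf and Ntf3 varied together over the 18 DG arrays (Pearson r = 0.77, and 0.56 after the group means were taken off). Ntf3 and Ntrk3 NM_182809 had r = 0.77, and 0.58 within groups. Bdnf had r = 0.64 with Ntrk3 NM_008746 and 0.65 with NM_182809. Ntrk2 NM_008745 ran against Bdnf (r = -0.53, and -0.46 within groups), but also against Ntf3 (-0.51, and -0.37 within groups). It ran against Ntrk3 NM_008746 (-0.57, and -0.47 within groups) and NM_182809 (-0.55, and -0.42 within groups) too. Ntrk2 NM_001025074 had r = 0.22 with Bdnf, and -0.37 within groups. These points share tissue pieces and array width. Outside the members, the DG features most like Bdnf were Clvs2 (r = 0.93), Nrde2 (0.89) and Lmo7 (0.89), those most like Ntf3 were Gng2 (0.92), Sema5a (0.92) and Mas1 (0.92), those most like Ntrk2 NM_001025074 were Gsk3b (0.94), Socs7 (0.90) and Prr13 (0.89), and those most like Ntrk3 NM_008746 were Camk2b (0.94), Cnot6l (0.94) and Hnrnpul2 (0.93). Sema5a is also on the granule cell marker list.

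Cell type markers are given beside these differences because the pieces hold several kinds of cells. The shares called below stand beside 15.3% of all features for lifetime GRov and 11.4% for early-life GRov against control. Of 10 granule cell markers tested in DG, 3 rose with lifetime GRov (Tdo2 +1.14, Sema5a +0.69, Il16 +0.67) and 4 with early-life GRov (Sema5a +0.67, Il16 +0.58, Bhlhe22 +0.51, Dsp +0.47), with none falling. Their summed level was 14.20 to 14.59 in lifetime GRov, 14.29 to 14.82 in early-life GRov and 13.95 to 14.75 in control DG (log2). The median difference of the 10 granule cell markers from control was +0.14 with lifetime and +0.43 with early-life GRov. Of 7 microglial markers, 2 fell with lifetime GRov (Tyrobp, by 0.56, and Tmem119, by 0.28) and 1 with early-life GRov (Tyrobp, by 0.70), and the summed level was 10.52 to 10.92 in lifetime GRov, 10.51 to 11.16 in early-life GRov and 10.92 to 11.12 in control mice. Of 12 astrocyte markers, none changed with lifetime GRov and 1 rose with early-life GRov (Slc4a4, +0.42), and the summed levels overlapped at 13.60 to 14.20, 13.26 to 14.20 and, in control mice, 13.40 to 14.14. The remaining lists had 1 rise and 2 falls among 8 pyramidal and mossy cell markers, 1 rise among 10 interneuron markers, 1 fall among 10 oligodendrocyte markers and 1 fall among 7 medium spiny neuron markers with lifetime GRov, and none among 7 endothelial and pericyte markers. With early-life GRov they had 2 falls among interneuron markers and 1 among medium spiny neuron markers. With the array range as a covariate, 1 of the 11 marker calls for lifetime GRov was kept (Grik4, a pyramidal and mossy cell marker, -0.66, adjusted p = 0.0140) and 0 of the 9 for early-life GRov. Lifetime against early-life GRov had 3 marker calls, beside 1.37% of all features. These were 1 of 10 granule cell markers (Dsp, -0.57) and 2 of 8 pyramidal and mossy cell markers (Bok, +0.57, and Iyd, -0.55). All 3 stayed called with the covariate. The part of these cells in the member differences was not tested.

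The nucleus accumbens gave a different picture, since the ligand genes were near the bottom of the scale there. Bdnf averaged 5.01, at percentile 17.3 of all features, and Ntf3 4.98, at percentile 16.5, so both fell under the filter of 5.77 (the 40th percentile) and were not tested. Bdnf was measured at 4.80 to 5.10 (median 4.96) in lifetime GRov, 4.87 to 5.27 (median 5.12) in early-life GRov and 4.92 to 5.03 (median 4.95) in control mice. Ntf3 was measured at 4.75 to 5.16 (median 4.87) in lifetime GRov, 4.76 to 6.29 in early-life GRov and 4.89 to 5.13 (median 4.93) in control mice. The 6.29 was the array of animal 5, and the other 5 early-life values were 4.76 to 5.002. The Ntrk3 features were just under the filter, at percentiles 37.8 and 38.4, with NM_008746 at 5.64 to 5.83 in lifetime GRov, 5.47 to 5.94 in early-life GRov and 5.39 to 5.82 in control mice. NM_182809 was at 5.63 to 5.74 in lifetime GRov, 5.62 to 6.13 in early-life GRov (6.13 in animal 5) and 5.58 to 5.80 in control mice.

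Only the Ntrk2 features were tested in NAcc, and neither changed in any comparison (limma, 0 of 2 called and 0 with an unadjusted p under 0.05, beside 0% of all features called for either GRov group against control and 0.00885% for lifetime against early life, and 3.67% to 5.29% of all features with an unadjusted p under 0.05). Ntrk2 NM_001025074 was measured at 9.56 to 9.98 (median 9.68) in lifetime GRov, 9.14 to 9.71 (median 9.56) in early-life GRov and 9.31 to 9.76 (median 9.55) in control mice. All 7 lifetime values lay above the control mean, yet the ranges overlapped, and the difference was +0.15 ± 0.09 (SE, 95% interval -0.05 to 0.35, adjusted p = 1.0). Early life against control was -0.04 (95% interval -0.25 to 0.16, adjusted p = 0.877) and +0.03 without animals 5 and 8. Ntrk2 NM_008745 was measured at 8.88 to 9.31 (median 8.98) in lifetime GRov, 8.20 to 9.10 (median 8.99) in early-life GRov and 8.81 to 9.10 (median 8.92) in control mice. The 8.20 was again animal 5. The differences from control were +0.11 (95% interval -0.15 to 0.37, adjusted p = 1.0) for lifetime GRov and -0.06 (-0.33 to 0.21, adjusted p = 0.875) for early-life GRov, the second of which was +0.08 without animals 5 and 8. Over the NAcc arrays the features most like Ntrk2 NM_001025074 were Lars (r = 0.91), Chst1 (0.90) and Ppp6r3 (0.89), and without animals 5 and 8 they included Smc1a (0.87) and Brd2 (0.87).

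Set against each other in the 18 animals with both regions, the 2 ligand genes stood far higher in DG, and the 2 Ntrk2 features did not. The fit had the animal as a block. The array medians of DG (6.79 or above) did not overlap those of NAcc (6.50 or below), so the scales of the regions differ. The median feature differed by +0.71 and 89.6% of all features were called (82.9% higher in DG), and the values below are also given after that shift was taken off. No hybridization batch is given, so region and batch cannot be told apart.

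Bdnf averaged 8.56 ± 0.30 in DG and 5.02 ± 0.12 in NAcc (SD, n = 18 each). The ranges did not overlap, and the difference was +3.54 ± 0.07 (SE, higher in 18 of 18 animals, adjusted p = 2.68e-20), or +2.83 after the shift. Ntf3 averaged 9.63 ± 0.35 in DG and 4.99 ± 0.35 in NAcc, again without overlap, with +4.64 ± 0.10 (SE, higher in 18 of 18 animals, adjusted p = 1.90e-19), or +3.93 after the shift. In control animals alone the differences were +3.32 for Bdnf and +4.30 for Ntf3, and without animals 5 and 8 they were +3.50 and +4.69. The NAcc levels of both genes lie under the filter and are not shown to be above background, so these are differences on the log2 scale and not measured folds.

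Both Ntrk3 features were also higher in DG in 18 of 18 animals. NM_008746 averaged 7.10 ± 0.36 in DG and 5.69 ± 0.15 in NAcc (SD, n = 18 each), a difference of +1.40 ± 0.08 (SE, adjusted p = 2.86e-13), or +0.70 after the shift. NM_182809 averaged 6.97 ± 0.17 in DG and 5.72 ± 0.12 in NAcc, a difference of +1.25 ± 0.05 (SE, adjusted p = 1.15e-15), or +0.54 after the shift. Bdnf, Ntf3 and both Ntrk3 features reached the filter of this fit through their DG level, so their calls are descriptions of where the genes are measured.

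The Ntrk2 features behaved differently. NM_008745 averaged 8.35 ± 0.22 in DG and 8.94 ± 0.21 in NAcc (SD, n = 18 each) and was lower in DG in 18 of 18 animals, by -0.58 ± 0.07 (SE, adjusted p = 4.66e-08), or -1.29 after the shift. This feature was lower in DG while 6.67% of all features were called lower there. NM_001025074 averaged 9.70 ± 0.23 in DG and 9.57 ± 0.15 in NAcc, with overlapping ranges and +0.14 ± 0.07 (SE, 14 of 18 animals higher, adjusted p = 0.0520). Its direction depended on scaling, since it was -0.57 after the shift. With all arrays quantile normalized together it was -0.59 (limma adjusted p = 1.21e-08), and with each array centred on its median -0.52 (adjusted p = 3.86e-06). On those 2 scales it was thus called lower in DG. Astrocyte markers, of which 6 of 12 were higher and 1 lower in DG, had a median difference of +0.19, against +0.71 for all features. This was not particular to astrocytes. Medians were +0.43 for endothelial and pericyte, +0.18 for interneuron, +0.15 for oligodendrocyte and +0.13 for pyramidal and mossy cell markers. They were +0.0003 for microglial and -1.79 for medium spiny neuron markers, and only granule cell markers were above, at +4.10. The part of any cell type in the Ntrk2 differences was not tested.

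**Figure D4:**
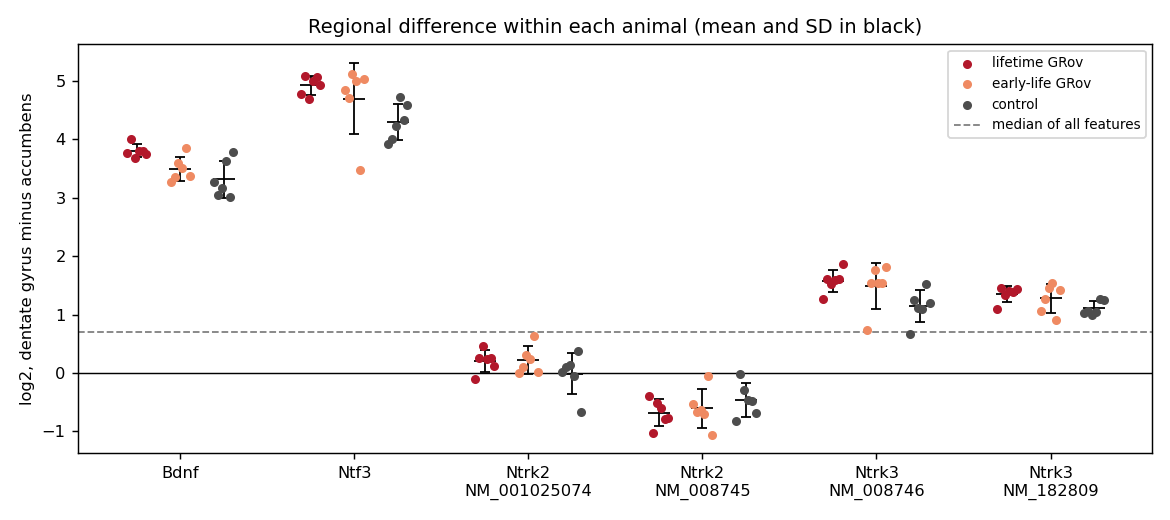
Log2 value in the dentate gyrus minus that in the nucleus accumbens within each of the 18 animals, by group, with the mean and SD in black and a dashed line at the median of all features, 0.71. Bdnf and Ntf3 lie far above the line, the Ntrk3 features mostly above it, and Ntrk2 NM_008745 below 0 in all animals.

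Whether a change with GRov differed between the regions was tested on these within-animal differences. No member passed for lifetime GRov against control (limma, 0 of 6 called and 4 of 6 with an unadjusted p under 0.05, beside 0.593% and 11.2% of all features), for early life against control (0 of 6 and 0 of 6, beside 0% and 19.5%) or for lifetime against early life (0 of 6 and 1 of 6, beside 0.319% and 8.28%). Bdnf, Ntf3 and both Ntrk3 features are under the NAcc filter and enter this fit through their DG level, so for them the test largely restates the DG difference. DG minus NAcc for Bdnf was 3.80 ± 0.11 in lifetime GRov, 3.49 ± 0.21 in early-life GRov and 3.32 ± 0.32 in control mice (SD, n = 6 each). Lifetime values, 3.69 to 4.01, overlapped only the highest control value, 3.78 in animal 19, and the difference was +0.49 ± 0.14 (SE, unadjusted p = 0.00222, adjusted p = 0.143). For Ntf3 the within-animal difference was 4.92 ± 0.16 in lifetime GRov, 4.70 ± 0.62 in early-life GRov and 4.30 ± 0.31 in control mice (SD, n = 6 each). The wide early-life spread came from animal 5, at 3.48, against 4.71 to 5.12 in the other 5. Lifetime against control was +0.63 ± 0.22 (SE, adjusted p = 0.278) and early life against control +0.40 ± 0.22 (SE, adjusted p = 0.305). An alternative without animals 5 and 8 was listed because earlier results had shown both arrays to stand apart. The mean correlation of the array of animal 8 lay within the range of its group. In that alternative the Ntf3 differences were +0.60 (adjusted p = 0.0291) for lifetime and +0.64 (adjusted p = 0.0480) for early-life GRov.

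Against control, the other genes of the pathway were called in DG at shares near or below those of all features, apart from the response list with lifetime GRov (20%, beside 15.3%) and the family list with early-life GRov (20%, 1 gene of 5, beside 11.4%). In all, 9 pathway genes were called for lifetime and 7 for early-life GRov against control. With the array range as a covariate all kept their sign and none stayed past the threshold, the smallest adjusted p being 0.0726 for lifetime GRov (Nptx2) and 0.349 for early-life GRov (Sorcs3). Lifetime against early-life GRov had 3 called, and these stayed past it. They were Cadps2 (1 of 10 processing genes), Camk4 (1 of 38 signalling genes) and Nptx2 (1 of 20 response genes), with 0 of 5 family genes. Of all features, 1.37% were called in that comparison, and 1.74% with the covariate. Of 10 listed genes for other ligands and receptors of the family, 5 were tested (Sort1, Sorcs2, Sorcs3, Sorl1 and Nradd). None changed with lifetime GRov, where the smallest p was that of Sorcs2 (+0.27 ± 0.09 SE, adjusted p = 0.0530). Sorcs3, a sortilin-related receptor, fell with early-life GRov (-0.46 ± 0.11 SE, limma adjusted p = 0.0167). The list median was -0.14 with lifetime and -0.05 with early-life GRov, beside +0.002 and -0.01 over all features.

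Of 14 genes for the processing and release of neurotrophins, 10 were tested. Pcsk1, a proprotein convertase of the regulated secretory pathway, fell with lifetime GRov (-0.53 ± 0.15 SE, limma adjusted p = 0.0216) and with early-life GRov (-0.46 ± 0.15 SE, adjusted p = 0.0483). It was the only one of the 10 to change in either comparison (10%, beside 15.3% and 11.4% of all features). Cadps2, which acts in dense core vesicle release, was higher in lifetime than in early-life GRov (+0.62 ± 0.13 SE, adjusted p = 0.0199). List medians were -0.08 for lifetime and -0.12 for early-life GRov against control.

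Of 38 signalling genes tested, out of 49 listed, 3 rose and 1 fell with lifetime GRov, and 2 rose and 2 fell with early-life GRov. That is 10.5% in each comparison, below the 15.3% of all features for lifetime and near the 11.4% for early-life GRov. Braf, a kinase above MEK and ERK, rose in both (lifetime +0.44 ± 0.09 SE, limma adjusted p = 0.00554, and early life +0.40 ± 0.09 SE, adjusted p = 0.0163). Crk, an adaptor on the route from Trk receptors to Rap1, also rose in both (lifetime +0.37, adjusted p = 0.0457, and early life +0.54, adjusted p = 0.0161). Frs3, an adaptor of the FRS family that links receptor kinases to Ras, fell in both (lifetime -0.28, adjusted p = 0.0278, and early life -0.25, adjusted p = 0.0490). Camk4, a kinase that phosphorylates CREB, rose with lifetime GRov (+0.30, adjusted p = 0.0444) and was higher in lifetime than in early-life GRov (+0.51, adjusted p = 0.00886). Rps6ka1, a ribosomal S6 kinase downstream of ERK, fell with early-life GRov (-0.41, adjusted p = 0.0304). The list median was +0.11 for lifetime and +0.06 for early-life GRov.

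Of 20 tested genes known to respond to BDNF or to neuronal activity, 3 rose and 1 fell with lifetime GRov (20%, 4 genes, beside 15.3% of all features). Klf10 (+0.94, limma adjusted p = 0.0222) and Jun (+0.78, adjusted p = 0.0137), which encode transcription factors, and Nptx2 (+0.30, adjusted p = 0.0330), which encodes a secreted synaptic pentraxin, rose. Crem, a regulator of cAMP-responsive transcription, fell (-0.63, adjusted p = 0.00715). With early-life GRov only Cort, the cortistatin gene, changed (-0.37, adjusted p = 0.0280), which is 5% beside 11.4%. Nptx2 was higher in lifetime than in early-life GRov (+0.51, adjusted p = 0.00497). List medians were +0.02 for lifetime and -0.23 for early-life GRov against control. In NAcc no gene of the 4 lists changed in any comparison (limma, 0 of 4, 9, 36 and 20 tested). In one comparison at most 4 of 36 signalling, 2 of 20 response and 1 of 9 processing genes had an unadjusted limma p under 0.05. Of all features, 3.67% to 5.29% had such a p in the NAcc comparisons.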

How the data were processed

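Per the submitters' processing notes, RMA was used (version not given in the sources used here), and the values that the authors deposited lie on a log2 scale, with 1 row per RefSeq transcript. Of 24142 deposited accessions, 20920 matched the RefSeq gene table of GRCm38.p6, which was used for names and gene positions and is not stated to be the build behind the probes. Values could not be traced to probes or to signal over background. Replicates are separate animals per the labels. Each title number was taken as 1 animal, since the series design says that both regions came from each animal.

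The members, lists and tests were chosen with earlier results of these data known. In each region limma 3.58.1 in R 4.3.3 was fitted to the 3 groups together, after features under the 40th percentile of mean level (6.34 in DG, 5.77 in NAcc) were left out, with two-sided tests and Benjamini-Hochberg adjustment over 11301 features. The code was tested on simulated data. DG and NAcc were compared with the animal as a block. Deviations from group means in the 2 regions of an animal correlated at a median of 0.14 (-0.20 to 0.47, over 0.1 in 11 of 18 animals). Other settings were a filter at percentile 60, all features unfiltered, further quantile normalization, median centring, array weights, the array interquartile range as a covariate, only the groups compared, the animal as a random block and leaving out each array. Named beyond the members were Nr3c1, in each pathway list up to 3 genes with the largest change past the threshold in each direction or else the one with the smallest p, and the 3 features most correlated with each member gene. The likeness without animals 5 and 8 was added after the data were seen. A feature that this rule also picks, and some listed genes, are not reported here.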

Additional observations from a re-analysis of the deposited data

Results flagged for a closer look

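Of 42 combinations of a feature and a group of 6 or 7 arrays examined (the 6 members and Nr3c1), 5 held an array far from the others by Dixon's criterion, which chance alone meets in about 1 in 20 groups. Of these, 3 came from the NAcc array of early-life GRov animal 5. Ntf3 was 6.29 there and 4.76 to 5.002 in the other early-life NAcc arrays, Ntrk2 NM_008745 was 8.20 there and 8.88 to 9.10 in the others, and Ntrk3 NM_182809 was 6.13 there and 5.62 to 5.77 in the others. In DG, Ntrk3 NM_008746 was 6.41 in early-life animal 1 and 7.27 to 7.47 in the other early-life arrays. Ntrk3 NM_182809 was 6.81 in the DG of lifetime animal 10 and 7.06 to 7.14 in the other lifetime arrays. No cause was tested.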

How the results depend on the processing

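The DG calls depended on the setting. For lifetime GRov against control, 2 members passed in the fit as reported, 4 with further quantile normalization (the Ntrk3 features added), 5 with median centring and 5 with array weights (all but Ntrk2 NM_008745 in both), 3 with only the 2 groups compared and 3 with the animal as a replicate block (Ntrk3 NM_008746 added, adjusted p = 0.0326 and 0.0236), and 0 with the array range as a covariate. For early life against control, 1 passed as reported, 2 with further quantile normalization, 3 with median centring, 3 with array weights, 0 with the array range as a covariate and 0 with the animal as a replicate block over both regions. Leaving out 1 array gave 2 to 5 for lifetime GRov (4 without early-life animal 1, and 5 without lifetime animal 10 or control animal 18) and 0 to 4 for early life (4 without early-life animal 1, 2 without control animal 19, and 0 without early-life animal 3, 4 or 5 or control animal 14 or 15). Over all features, no filter gave 2617 calls (13.9%) for lifetime and 1997 (10.6%) for early life, against 1733 (15.3%) and 1291 (11.4%). Array weights gave 2937 (26.0%) and 2419 (21.4%), and the replicate block 948 (8.39%) and 511 (4.52%). Leaving out 1 array gave 808 to 2611 for lifetime and 213 to 2273 for early life. The highest counts came without lifetime animal 10 and without early-life animal 1. The shares under median centring and further quantile normalization are not given here. In NAcc against control, array weights gave 144 calls for lifetime, including Nr3c1 (+0.42, adjusted p = 0.0214), and 287 for early life, against 0 and 0. Leaving out animals 5 and 8 gave 279 for lifetime, including Nr3c1 (+0.42, adjusted p = 0.0295), and 9 for early life. For the change in DG minus that in NAcc, 0 members passed as reported. Ntf3 alone passed for lifetime GRov once the DG minus NAcc difference in array range was a covariate (+0.81, adjusted p = 0.0232). That covariate includes the narrow NAcc array of animal 5. It is not the DG range, with which the Ntf3 difference in DG did not pass (+0.33, adjusted p = 0.476). Without animals 5 and 8, Ntf3 alone passed for lifetime and for early life. Ntf3 enters this fit through its DG level. Ntrk2 NM_001025074 in DG against NAcc passed with no replicate block (+0.14, adjusted p = 0.0491), and turned to -0.011 in control animals only, which did not pass. It turned and passed at -0.59 with all arrays quantile normalized together (adjusted p = 1.21e-08) and at -0.52 with median centring (adjusted p = 3.86e-06).

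Apart from Ntrk2 NM_001025074 in DG against NAcc, signs turned for small differences that passed in no setting. For Nr3c1 in early life against control it was -0.020 in DG with the array range as a covariate, -0.0049 in NAcc with quantile normalization and -0.0042 with median centring. Ntrk3 NM_182809 in lifetime against early-life DG was -0.0027 with quantile normalization, -0.0093 with median centring and -0.017 with the array range as a covariate. In NAcc, early life against control, Ntrk2 NM_001025074 was +0.077 with quantile normalization and +0.031 without animals 5 and 8, and Ntrk2 NM_008745 was +0.098 with array weights, +0.026 with the array range as a covariate and +0.080 without animals 5 and 8. Ntrk2 NM_008745 was -0.032 in lifetime against early-life NAcc with array weights. For the change in DG minus NAcc, lifetime against early life, Ntrk2 NM_001025074 was +0.13 with quantile normalization and +0.064 without animals 5 and 8. It was +0.044 with the DG minus NAcc difference in array range as a covariate. Ntrk3 NM_182809 was -0.0040 with quantile normalization and -0.0030 without those animals, Ntf3 -0.046 and Ntrk2 NM_008745 +0.057 without them. Leaving out 1 array turned Ntrk2 NM_008745 (-0.035 to +0.097), Ntrk3 NM_008746 (-0.075 to +0.15) and Ntrk3 NM_182809 (-0.051 to +0.051) in lifetime against early-life DG, and Ntrk2 NM_001025074 (-0.088 to +0.031), Ntrk2 NM_008745 (-0.10 to +0.080) and Nr3c1 (-0.024 to +0.17) in early life against control NAcc. Apart from the array range as a covariate, both lifetime ligand calls in DG held in the 7 other settings and in all 18 fits without 1 array. The cause of the changed calls was not tested. The number of arrays and the amplified RNA limit precision, and array width and group nearly coincide in DG.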
